A study of Mus musculus with 15 samples.

Results

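Accessible chromatin was compared between a WT and a KO library of sorted mouse haematopoietic stem cells (HSC), over the strongest ATAC-seq peaks of each. Peaks on chromosomes 1 to 19 and X were ranked by their deposited score, at most 17316 were kept in each library, and a peak counted as shared when it overlapped a peak of the other kept list by at least 1 bp. The WT list held 17316 peaks, of which 17303 lay on these chromosomes and all were kept. The KO list held 19189 peaks, of which 17316 of the 19174 on these chromosomes were kept. Together the kept lists held 34619 of the 64896 peaks of the 3 ATAC libraries.

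The series is a mouse model of the kinase mTOR with 15 samples of sorted HSC, and its 12 RNA-seq samples were not analysed here. The WT library came from Mx1-Cre-/-;mTORflox/flox mice, the KO library from Mx1-Cre+/-;mTORflox/flox mice, and a further library, KI, from Mx1-Cre+/-;mTORflox/knockin mice. All were adult and had received poly(I:C), which induces the interferon-responsive Mx1 promoter that drives Cre in blood cells and in other interferon-responsive tissues. KO and KI carried Cre and WT did not, so an effect of Cre and an effect of the Mtor alleles cannot be told apart. WT and KO are labelled as re-analysed and KI is not. The labels' protocols give 50000 sorted cells per library and a transposase reaction of 30 min at 37 °C. The comparison of WT with KO asks which accessible regions differ when floxed Mtor meets Cre, with 1 library a side and therefore no replicate error, no test and no p-value.

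mTOR is the catalytic subunit of mTORC1, which stimulates ribosome and protein synthesis and restrains autophagy when amino acids and growth factors are present, and of mTORC2, which phosphorylates AKT. HSC are kept largely quiescent with a low rate of protein synthesis, and mTOR activity is known to affect their quiescence and self-renewal. In ATAC-seq a transposase inserts adapters into DNA that is not covered by nucleosomes, so peaks mark open promoters, enhancers and other exposed sites.

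Each peak carried a score, read here as the MACS form of 10 times the negative log10 of its p-value, and scores were used to rank peaks within their own library. The lowest score kept was 50.01 in WT and 55.13 in KO. The kept peaks covered 11.6 Mb in WT and 10.7 Mb in KO, with median widths of 590 bp and 541 bp. Read depth is unknown, and a weak site can miss the list of a shallower or noisier library without being closed. Of 20 HSC marker genes, 12 had a peak within 1 kb of a gene start in at least 1 of the lists. The same count was 4 of 12 for erythroid, 4 of 10 for megakaryocyte, 1 of 12 for granulocyte and monocyte, 1 of 7 for B lymphoid, 3 of 10 for T and NK, 1 of 6 for mast cell and 2 of 8 for stromal and endothelial markers.

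The promoters below belong to 8 of the genes with the highest start peaks in 1 list only and are shown so that the sequence at these sites can be read beside their scores. Trim12a, second in KO, is not shown, as its promoter shares 79.0% of its 20-base stretches with that of Trim5, and at Kifbp a weak KO peak lay below the kept list. Each is the 250 bases before the gene start, 5′ to 3′ on the gene's strand, from RefSeq on GRCm38.p6 (mm10). Capitals mark matches on either strand to 5 motifs. The TATA box was searched as TATAAA. The core of the cAMP response element was searched as TGACG. Sites of the Ets family were searched as CCGGAA. The GC box bound by Sp factors was searched as GGGCGG. The motif known as the CCAAT box was searched by these letters. The E-box of MYC, CACGTG, was also searched and is not in these 8 windows. From the WT list come Mtor (chr4:148448332-148448581, plus strand), Zfp429 (chr13:67399768-67400017, minus strand), Gba2 (chr4:43578865-43579114, minus strand) and Kifbp (chr10:62578458-62578707, minus strand).
Mtor: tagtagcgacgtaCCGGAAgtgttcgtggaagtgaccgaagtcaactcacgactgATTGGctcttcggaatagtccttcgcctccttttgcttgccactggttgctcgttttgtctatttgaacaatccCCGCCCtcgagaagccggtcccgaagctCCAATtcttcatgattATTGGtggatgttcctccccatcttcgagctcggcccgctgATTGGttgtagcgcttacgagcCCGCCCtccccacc
Zfp429: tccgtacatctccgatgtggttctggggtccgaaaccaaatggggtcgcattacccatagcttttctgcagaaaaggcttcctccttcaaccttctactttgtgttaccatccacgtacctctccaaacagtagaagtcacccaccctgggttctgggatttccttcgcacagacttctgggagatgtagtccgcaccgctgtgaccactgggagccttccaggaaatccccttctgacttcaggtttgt
Gba2: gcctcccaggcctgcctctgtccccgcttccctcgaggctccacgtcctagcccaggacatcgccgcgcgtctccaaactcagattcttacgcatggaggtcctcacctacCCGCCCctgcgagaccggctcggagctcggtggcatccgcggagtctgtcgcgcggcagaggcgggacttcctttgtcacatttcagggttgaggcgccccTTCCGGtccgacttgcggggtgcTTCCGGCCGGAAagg
Kifbp: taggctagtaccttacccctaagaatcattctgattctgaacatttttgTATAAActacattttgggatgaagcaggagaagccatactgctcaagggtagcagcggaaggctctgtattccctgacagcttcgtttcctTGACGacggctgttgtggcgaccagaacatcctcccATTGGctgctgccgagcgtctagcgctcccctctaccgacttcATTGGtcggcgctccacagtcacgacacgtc
From the KO list come Zfp58 (chr13:67500523-67500772, minus strand), Ror1 (chr4:100095541-100095790, plus strand), Slc30a10 (chr1:185454598-185454847, plus strand) and Map7d1 (chr4:126256320-126256569, minus strand).
Zfp58: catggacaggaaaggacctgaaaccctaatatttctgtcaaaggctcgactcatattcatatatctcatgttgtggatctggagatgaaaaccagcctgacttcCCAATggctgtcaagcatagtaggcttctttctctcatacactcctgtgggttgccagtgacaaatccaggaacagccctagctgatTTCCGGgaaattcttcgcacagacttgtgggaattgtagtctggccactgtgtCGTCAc
Ror1: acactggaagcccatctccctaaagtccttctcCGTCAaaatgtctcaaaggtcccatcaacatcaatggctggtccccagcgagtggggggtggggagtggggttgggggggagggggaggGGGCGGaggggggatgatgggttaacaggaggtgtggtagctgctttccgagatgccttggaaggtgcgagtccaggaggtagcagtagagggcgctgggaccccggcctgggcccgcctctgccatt
Slc30a10: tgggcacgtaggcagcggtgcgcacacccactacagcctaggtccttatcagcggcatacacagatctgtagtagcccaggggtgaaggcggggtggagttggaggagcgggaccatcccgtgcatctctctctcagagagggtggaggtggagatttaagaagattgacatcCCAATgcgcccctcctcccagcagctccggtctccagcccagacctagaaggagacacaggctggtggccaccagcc
Map7d1: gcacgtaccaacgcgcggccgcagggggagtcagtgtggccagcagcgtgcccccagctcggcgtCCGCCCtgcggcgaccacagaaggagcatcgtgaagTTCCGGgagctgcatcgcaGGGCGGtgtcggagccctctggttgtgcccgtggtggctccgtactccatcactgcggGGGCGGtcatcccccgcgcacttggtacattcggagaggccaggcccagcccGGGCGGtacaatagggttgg
The Mtor promoter held 2 GC boxes, 4 CCAAT boxes and an Ets match, with the GC boxes 121 and 14 bases before the start. Gba2 held 3 Ets matches, of which 2 lay 15 and 9 bases before the start, and Map7d1 held 4 GC boxes. The observed over expected CpG ratio was 1.05 at Mtor, 0.908 at Gba2, 0.839 at Map7d1 and 0.789 at Kifbp. It was 0.494 at Zfp429, 0.390 at Slc30a10, 0.354 at Ror1 and 0.293 at Zfp58. Promoters with many and with few CpG sites were thus present on both sides.

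Most strong peaks were shared. In WT, 4966 of 17303 peaks (28.7%, Wilson 95% interval 28.0 to 29.4) had no KO peak, and in KO, 4969 of 17316 (28.7%, 28.0 to 29.4) had no WT peak. These intervals, like all below, cover counting error over peaks only. Of the WT-only peaks, 549 (11.1%) overlapped a weaker KO peak below the kept list. No KO-only peak could do so, since the WT list was kept whole. The absent peaks mostly lay far from any peak of the other kept list, with a median gap of 23556 bp for WT-only and 25604 bp for KO-only peaks. Only 296 WT-only (5.96%) and 262 KO-only peaks (5.27%) lay within 1 kb of a peak of the other list.

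Peaks present in 1 list only were the weak ones. Their median score was 64.8 in WT and 67.8 in KO, and 430 WT-only and 418 KO-only peaks scored at least 100. A score of at least 150 was reached by 35 WT-only and 24 KO-only peaks. In the lowest score decile 66.0% of WT and 65.6% of KO peaks were absent from the other list, in the fifth decile 31.5% and 30.7%, and in the eighth 3.18% and 3.29%. In the top decile 1 WT peak, at the Mtor start, and 2 KO peaks were absent, 1 in the body of Sfi1 and 1 with no gene start within 50 kb. Each library therefore listed its strongest sites in common with the other, with few exceptions that are described by name below.

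Place relative to genes separated the lists further. A start peak lay within 1 kb of a protein-coding gene start, a body peak lay elsewhere inside a gene, and the remainder were distal. Of start peaks, 1403 of 9354 WT peaks (15.0%, 14.3 to 15.7) and 955 of 8901 KO peaks (10.7%, 10.1 to 11.4) had no overlapping peak in the other list. The same held for 1771 of 3927 WT (45.1%, 43.5 to 46.7) and 1999 of 4152 KO body peaks (48.1%, 46.6 to 49.7). Of distal peaks, 1792 of 4022 WT (44.6%, 43.0 to 46.1) and 2015 of 4263 KO peaks (47.3%, 45.8 to 48.8) were absent. WT-only peaks were thus more often at gene starts (28.3%, 27.0 to 29.5) than KO-only peaks (19.2%, 18.1 to 20.3), whereas the share at starts among shared peaks was 64.4% counted in either list. With both lists whole these shares were 26.8% and 19.3%.

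The difference by place was also present among peaks of similar rank. In the lowest score decile 54.5% (50.1 to 58.9) of WT and 39.8% (35.3 to 44.4) of KO start peaks were absent from the other list, and in the fourth decile 31.5% and 23.2%. Body peaks of the lowest decile were absent in 68.8% of cases in WT and 73.6% in KO, and distal peaks in 71.9% and 75.3%. Start peaks were missed less often than body and distal peaks in each of the 8 lowest deciles of both lists. Absent peaks were also narrower. The median width of WT-only peaks was 506 bp at starts, 426 bp in bodies and 410 bp at distal sites, against 766, 555 and 539 bp for shared WT peaks.

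**Figure D1:**
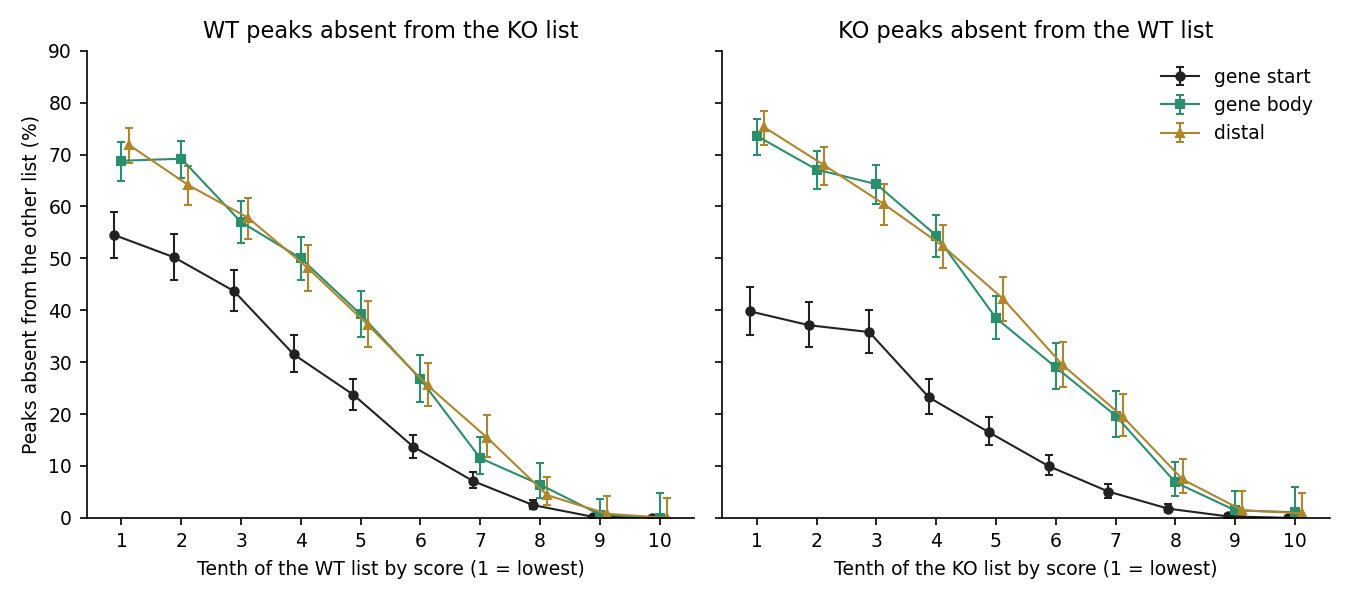
Share of peaks absent from the other list (%, vertical axis) by decile of the peak's own list (1 is the lowest score), for WT peaks (left) and KO peaks (right), by place; bars are Wilson 95% intervals. In the lowest decile 54.5% of WT and 39.8% of KO start peaks were absent, while the body and distal curves of each list lie above the start curve up to the eighth decile.

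The KI library, whose list was longer (28373 peaks on these chromosomes), gave a further reading of the same sites. A KI peak overlapped 3082 of the WT-only peaks (62.1%, 60.7 to 63.4), 3042 of the KO-only peaks (61.2%, 59.9 to 62.6) and 97.0% of the shared peaks. At starts, KI had a peak at 77.1% of WT-only and 76.3% of KO-only peaks. In bodies the shares were 58.4% and 57.1%, and at distal sites 53.9% and 58.1%. The KI share rose with score, from 48.7% of WT-only and 48.3% of KO-only peaks in the lowest decile to 87.5% and 85.9% in the sixth. With the KI list cut to 17316 peaks the shares were 37.2% for WT-only and 36.6% for KO-only peaks. KI peaks were therefore found about as often at sites listed in WT alone as at sites listed in KO alone.

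**Figure D2:**
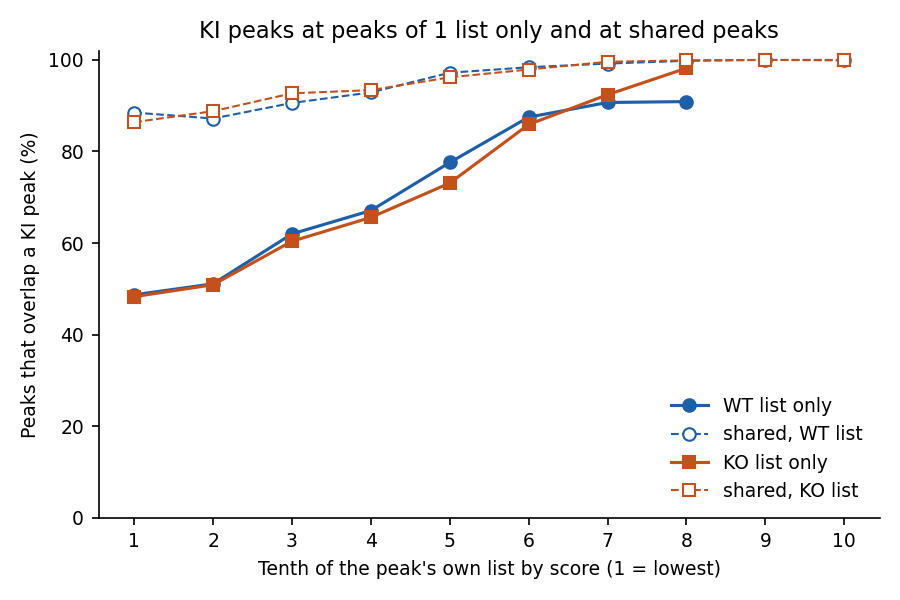
Share of peaks that overlap a KI peak (%, vertical axis) by decile of the peak's own list (1 is the lowest score), for peaks in 1 list only (filled, deciles with at least 50 such peaks) and shared peaks (open). The WT-only and KO-only curves start at 48.7% and 48.3% and run close together up to the seventh decile.

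Absence was spread over the genome. By chromosome, WT-only peaks made up from 22.4% (X) to 33.2% (14 and 15) of WT peaks, and KO-only peaks from 24.0% (9) to 33.0% (14) of KO peaks. On X, 100 of 447 WT peaks and 145 of 490 KO peaks (29.6%) were absent from the other list. Among body peaks in genes of at least 500 kb, 130 of 281 WT peaks (46.3%, 40.5 to 52.1) and 189 of 337 KO peaks (56.1%, 50.7 to 61.3) had no partner in the other list. Of distal peaks with no gene start within 50 kb, 671 of 1585 WT (42.3%, 39.9 to 44.8) and 855 of 1780 KO peaks (48.0%, 45.7 to 50.4) were absent. Over all body peaks these shares were 45.1% and 48.1%, and over all distal peaks 44.6% and 47.3%.

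The targeted gene was read first. Mtor spans chr4:148448582-148557685. The WT list had a peak over its start at chr4:148448060-148449268 with a score of 341.21, rank 569 of the list, and the KI list had one with a score of 210.27. The KO list, whole or cut, had no peak there, and the nearest peak of the cut list lay 3153 bp away. Among WT-only peaks this one had the highest score. Peaks upstream of the start (score 89.02 in WT, 79.04 in KO and 92.49 in KI) and inside the gene (82.58, 90.6 and 79.18) were present in all 3 libraries. Which exons the floxed allele loses is not given in the sources used here.

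Start peaks were then read gene by gene. A start peak in either list was found at 10764 of 21631 protein-coding genes, and 8709 had one in both. WT alone had a start peak at 1241 of 9950 genes (12.5%), and KO alone at 814 of 9523 (8.55%). The KI library had a start peak at 1006 of the WT-only and 652 of the KO-only genes. At 1220 of the WT-only and 803 of the KO-only genes the start peak itself overlapped no peak of the other list, and at the few others a peak of the other list overlapped it but ended outside the 1 kb window. Of the WT-only genes, 213 had a weaker KO start peak below the kept list. With both lists whole the counts were 1028 and 997, so the excess of WT-only over KO-only genes fell from 427 to 31. It was 281 with the 10000 strongest peaks of each list and 104 with the 5000 strongest.

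After Mtor, the highest WT-only start peak was that of Zfp429, a zinc finger gene, with a score of 187.29 and no KI peak. The peak at the shared start region of Gba2, a non-lysosomal glucosylceramidase, and Rgp1, part of a guanine nucleotide exchange factor for RAB6, scored 181.74 (KI 115.94). Fam161a, a ciliary protein, scored 169.32 (KI 167.47), and Optn, an autophagy receptor that binds ubiquitinated cargo, scored 164.72 (KI 156.0). At these 4 sites, as at Mtor, the whole KO list had no overlapping peak.

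The other 5 of the 10 highest had a weak KO peak below the kept list. Kifbp, a kinesin-binding protein, scored 177.17 in WT and 53.09 in KO (KI 187.33). Tcp11 scored 166.78 in WT against 53.7 in KO, and Bicdl1, a dynein cargo adaptor of the BICD family, 166.61 against 50.7. No promoter sequence was read for Bicdl1, so it may be among the genes placed by both annotated ends. Rubcn, the autophagy inhibitor Rubicon, scored 165.52 against 51.91. Rbbp5, a core subunit of the MLL histone H3 lysine 4 methyltransferase complexes, scored 162.05 against 54.01. For these genes the libraries differed in the rank of the site rather than in its presence.

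The highest KO-only start peak was that of Zfp58, another zinc finger gene, with a score of 189.33 (KI 192.67). Trim12a, of the TRIM family of antiviral ubiquitin ligases, scored 175.48 (KI 320.93). Ror1, a receptor of Wnt5a, scored 168.3 (KI 162.11). Slc30a10, a manganese exporter, scored 165.81 (KI 136.72), and Map7d1, a microtubule-associated protein, 160.11 (KI 164.29). Lysmd2 scored 156.16 and Eid2b 155.83. No promoter sequence was read for Lysmd2 and Eid2b, so they may be among the genes placed by both annotated ends, where a peak need not mark the start. Slc36a4, an amino acid transporter, scored 152.13 (KI 192.06), and Steap3, the ferrireductase of the transferrin cycle, 149.68 (KI 95.54). KI had a peak at all 9 of these sites and WT at none.

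**Figure D3:**
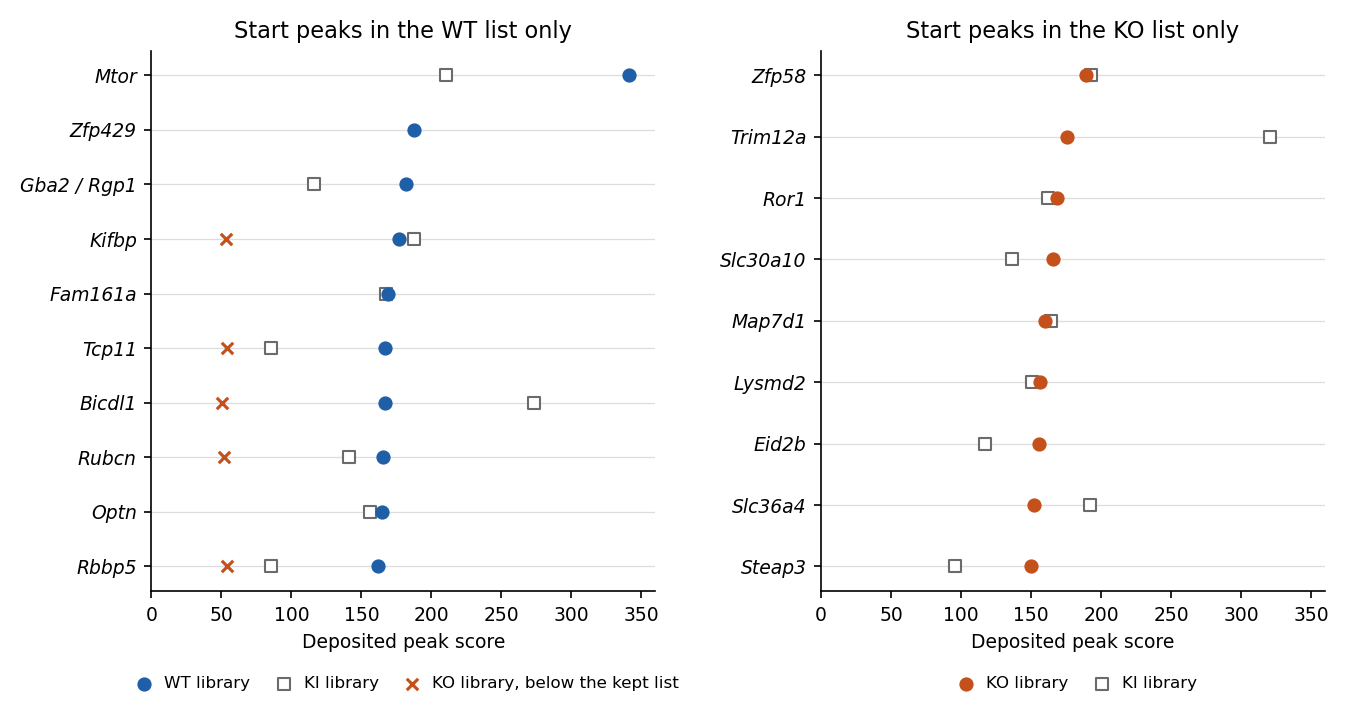
Deposited score (horizontal axis) of the 10 highest start peaks in the WT list only (left) and of 9 of the 10 highest in the KO list only (right), with the score of the overlapping KI peak (open squares) and of a weak KO peak below the kept list (crosses); each score is read within its own library. KI had a peak at 9 of the 10 WT-only and at all 9 KO-only sites shown, and Zfp429 is the site without one.

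Some of these peaks lay in clusters of related genes. On chromosome 13, the starts of Zfp429 (WT only) and Zfp58 (KO only) lay 100755 bp apart, and between them Zfp459 had a peak in WT (76.44) and KI (115.05) and none in KO. Zfp874a and Zfp874b, also between them, had start peaks in all 3 libraries. In the Trim cluster on chromosome 7, Trim12a (175.48), Trim30d (144.87), Trim6 (113.33) and Trim5 (108.67) had start peaks in KO and in KI but not in WT, and Trim30c had one in WT (95.35) alone. The 300-base promoter sequences of Trim12a and Trim5 share 79.0% of their 20-base stretches, and 52.3% of those of Trim30d are shared with Trim30a, so reads may not be assigned to 1 copy and the peaks of Trim12a, Trim5 and Trim30d are uncertain. The Trim6 promoter shares none of its 20-base stretches with another promoter. Zfp429 shares 24.6% with Rsl1.

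**Figure D4:**
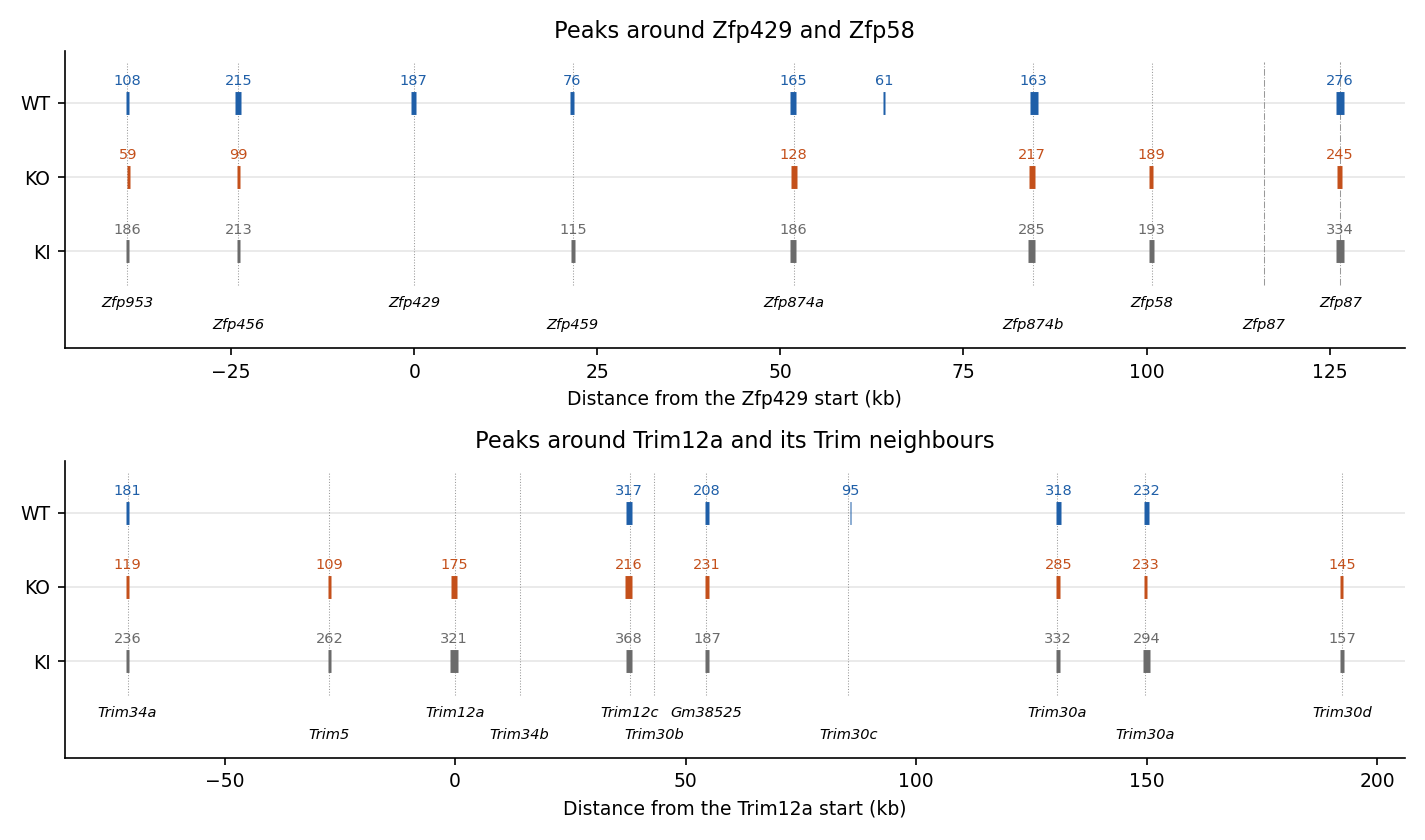
Peaks of the WT, KO and KI libraries (rows, bars to scale, numbers are rounded scores) by distance from the Zfp429 start (upper map) and the Trim12a start (lower map), in kb; dotted lines are gene starts and dash-dotted lines the 2 ends of Zfp87, whose start was not taken from the sequence table. Zfp429 has a peak in WT alone, Zfp58 in KO and KI, and Trim12a, Trim5 and Trim30d in KO and KI.

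Body peaks in WT alone were led by Tmigd3 (195.46, KI 139.97). Cdh13, which encodes T-cadherin, followed with 168.7, at 477570 bp from its start and 496882 bp from the nearest kept KO peak. Cpne2, a copine, scored 158.31, and Slc7a5, the large neutral amino acid transporter LAT1 that supplies mTORC1 with leucine, scored 157.45. Smo, the Hedgehog signal transducer, scored 151.65. Rtn1, a reticulon of the endoplasmic reticulum, scored 151.61, with a weak KO peak of 53.96. KI had a peak at each of these 6 body sites.

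Body peaks in KO alone were led by Sfi1, a centrin-binding protein gene, with a score of 228.73 over 2319 bp (KI 346.16). Slc12a3, the thiazide-sensitive sodium chloride cotransporter, scored 176.33 (KI 293.68) and lay 1543 bp from a WT peak. Pyroxd2 scored 165.72, Adcy9, an adenylyl cyclase, 160.49, Ms4a20 159.73 and Car8 158.34. Again KI had a peak at all 6.

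At distal sites, the highest WT-only peak with a gene start within 50 kb lay 23885 bp from Nxf7, of the nuclear RNA export factor family, on X (219.55, KI 137.42). Next were peaks near Chp2 (160.28), Gm4981 (157.19, no KI peak) and Dnajb12, a co-chaperone of the endoplasmic reticulum (146.83). Peaks near Map3k7cl (146.05) and Tcf12, a basic helix-loop-helix factor (143.37), had weak KO peaks of 50.6 and 51.56. KO-only distal peaks were led by 1 that lay 16298 bp from Bok, a pro-apoptotic BCL2 family gene (171.41, KI 241.32). Further KO-only peaks lay near 4930503L19Rik (163.42), Dnm3, a dynamin (155.47), Gm40363 (155.38), Trim33, a regulator of TGF-beta signalling (146.53), and Morf4l1, a chromodomain subunit of acetyltransferase complexes (142.98). No gene start within 50 kb was found for 671 of 1792 WT-only and 855 of 2015 KO-only distal peaks, among them the highest KO-only peak of all (262.37).

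Several genes held many peaks of the same list. At least 3 WT-only peaks lay in or nearest to 114 genes, and at least 3 KO-only peaks to 143 genes, with at least 4 at 22 and 43 genes. In WT, Palld, an actin-binding protein, Bach2, a transcriptional repressor of lymphocytes, and Rarb, a retinoic acid receptor, had 5 each. Eps8, Med12l, Parp8, Micall2 and Gramd1b had 4 each, and the highest of these scored 124.38, at Eps8. In KO, Pde4d, a cAMP phosphodiesterase, and Nav2 had 7 each, all in the gene body. Nfia, a nuclear factor I gene, Ncoa7, Pdzd2, Wipf1, which binds WASP, Macrod2 and Cmip had 5 each.

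Several of these genes are long, and some held peaks of the other list too. Pde4d spans 1302 kb and Nav2 651 kb, with 3 and 4 WT-only peaks beside their 7 KO-only peaks. Bach2 had 5 WT-only and 4 KO-only peaks, and Nfia 5 KO-only and 4 WT-only. In contrast, Wipf1 (99.9 kb) and Cmip (204 kb) had 5 KO-only and 0 WT-only peaks each. Eps8, Med12l, Parp8 and Micall2 had 4 WT-only and 0 KO-only peaks. Of the genes with at least 3, 49 in WT and 69 in KO had none of the opposite kind.

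Gene lists and families are given as counts of members with a start peak in WT only and in KO only, to be read against 12.5% and 8.55% over all genes. Many of these splits depend on the length of the peak lists. Of 53 gene and marker lists, 31 had more members in WT only and 13 more in KO only. With the 10000 strongest peaks of each list 19 of the 31 and 7 of the 13 kept that direction, and with the 5000 strongest 10 and 4 did. With both lists whole 23 of the 31 kept it. Of the 49 genes of the mTOR complexes and their regulators, 40 had a start peak in both lists. Beside Mtor, Rictor, the defining subunit of mTORC2, had one in WT only (58.38, KI 108.73). Rptor, the defining subunit of mTORC1 (63.65, KI 111.08), and Rps6kb2, an S6 kinase (65.19, KI 84.45), had one in KO only. The shares were 4.76% on both sides, below those of all genes, but with the 10000 strongest peaks of each list the split was 7 in WT only and 1 in KO only, and with the 5000 strongest 7 and 4. Away from starts, 6 of 19 WT peaks of these genes and 3 of 16 KO peaks were absent from the other kept list. Among them was a WT-only peak in Deptor, an mTOR inhibitor (114.51). Over all genes 45.4% of WT and 47.7% of KO peaks away from starts were absent.

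Genes of protein synthesis differed in how their members divided. Among cytosolic ribosomal protein genes 10 had a start peak in WT only and 2 in KO only (13.7% and 3.08%), with 63 in both. The WT-only peaks included Rps15 (142.62), Rpl32 (124.04), Rpl7l1 (114.79, a ribosomal-like factor taken in by its name) and Rps16 (108.71), and the KO-only ones were Rps4x (94.66) and Rpl23 (76.33). Of 34 aminoacyl-tRNA synthetase genes, which charge tRNAs, 6 had a start peak in WT only (17.6%) and none in KO only. They were led by Pars2 (151.86, no KI peak), the pair Hars and Hars2, which share a peak (104.66), and Aars2 (101.74). With both lists whole the ribosomal counts were 8 and 3 and the synthetase counts stayed at 6 and 0. With the 10000 strongest peaks of each list they were 11 and 7, and 8 and 2. With the 5000 strongest the ribosomal split turned to 7 and 10, and the synthetases had 5 on each side.

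Translation factors and mitochondrial ribosomal proteins were mostly in both lists and lay below the shares over all genes. Translation factors had 2 WT-only members (3.33%), Eif3i (59.76) and Eef2 (54.51), and 3 KO-only members (4.92%), led by Eif3c (107.54). Mitochondrial ribosomal proteins had 3 (4.76%) and 5 (7.69%), led by Mrpl3 (88.88, with a weak KO peak of 54.18) and Mrpl43 (114.36). Ribosome biogenesis had 3 in WT only (8.82%), Bop1 (155.23), Taf1a (94.66) and Pes1 (83.53), and 2 in KO only (6.06%), Bysl (96.89) and Tsr1 (78.23). Bop1 and Pes1 encode partners in the PeBoW complex that matures the large ribosomal subunit. Proteasome genes had 5 in WT only (11.1%), led by Psmc1 (88.25), and 1 in KO only (2.44%), Psmc3ip (85.87), which is a recombination factor and no subunit. Oxidative phosphorylation genes had 8, led by Ndufa9 (98.99), and 4, led by the assembly factor Ndufaf6 (112.61). The oxidative phosphorylation split was 11 and 8 with the 10000 strongest peaks of each list, and with the 5000 strongest it turned to 5 and 14.

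Several HSC identity genes had a start peak of low rank in WT only. Of the HSC markers, 7 had a start peak in both lists, 5 in WT only and none in KO only. The 5 included Runx1, a master regulator of HSC formation (95.69, KI 135.06), Procr, the surface receptor EPCR (92.65, no KI peak), Cd34 (71.68, KI 69.27) and Meis1, a homeobox factor of self-renewal (68.36, KI 84.0). None of these 4 had a KO start peak in the whole list either. In bulk libraries fewer cells of a type and less open chromatin per cell cannot be told apart. The 5 are 41.7% of the 12 markers with a WT start peak, but the median WT score over those 12 was 78.4, in a decile where 31.5% of all WT start peaks were absent from KO. The split of the markers was 3 in WT only and 2 in KO only with the 10000 strongest peaks of each list, and with the 5000 strongest 0 and 1. Away from starts 8 of 26 WT peaks (30.8%) and 12 of 30 KO peaks (40.0%) of these markers were absent from the other list. Over all genes these shares were 45.4% and 47.7%. The absent KO peaks included 2 in the Runx1 body (up to 102.43) that KI also had.

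Stem cell transcription factors gave 6 in WT only (18.2%) and 1 in KO only (3.57%), with 27 in both. Besides Runx1 and Meis1 the WT-only members were Bmi1, a Polycomb subunit (133.03), Gfi1, a repressor that restrains HSC cycling (67.49), Ebf1, the early B cell factor (65.73), and Id3 (50.41). Some of these genes had other peaks in KO, away from their starts. Gfi1 had a KO-only peak of 98.97, Ebf1 had KO-only peaks of up to 70.5, and the 3 KO peaks of Meis1 were all shared. Bmi1 and Id3 had no peak in the kept KO list. The KO-only member was Spi1, which encodes the myeloid factor PU.1 (55.16), just above the lowest KO score kept. These factors split 3 and 1 with the 10000 strongest peaks of each list, and with the 5000 strongest it turned to 2 and 4. Chromatin regulators had 4 in WT only (11.1%), Bmi1, Dnmt3b (112.27), Kdm1a (88.09) and Ring1 (72.62), and 2 in KO only (5.88%), Cbx7 (89.94) and Ezh1 (83.88). Both shares lay below those of all genes. Bmi1, Ring1 and Cbx7 are subunits of Polycomb repressive complex 1, and they fell on both sides. Of the Hox genes only Hoxa4 (62.74, WT) and Hoxb4 (66.33, KO) had a start peak in 1 list and none had one in both.

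Signalling and lineage genes were divided. Cytokine and growth factor signalling had 6 in WT only (16.7%), led by Cish, a STAT5-induced inhibitor (103.91), and Angpt1 (69.79). It had 4 in KO only (11.8%), led by Epor, the erythropoietin receptor (107.83), and Il6ra (91.86). This split turned to 2 and 10 with the 10000 strongest peaks of each list, and with the 5000 strongest it was 6 and 4 again. Csf1r, the macrophage colony-stimulating factor receptor, had a WT-only body peak (140.15). Among erythroid markers Sptb, the spectrin beta chain, had a start peak in WT only (161.94), and Epor and Car1 (98.68) in KO only. The megakaryocyte markers Gp9 (68.72) and Itga2b (60.39) and the T and NK markers Eomes (66.06) and Bcl11b (56.02) had one in KO only. Col1a1 (88.14) and Col1a2 (62.22), collagen genes of stromal cells, also had a start peak in KO only, and Csf3r (64.5) in WT only. The part of other cell types in these differences was not tested.

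In several lists of immune and death-signalling genes KO-only members outnumbered WT-only ones, but not in all. MHC genes had 3 in WT only and 2 in KO only. Guanylate-binding proteins and immunity GTPases had 1 and 0. In the TNF superfamily 6 genes had a start peak in both lists, 6 in KO only and 1 in WT only. The KO-only members were the ligands Tnfsf10, or TRAIL (94.48), and Tnfsf13b, or BAFF (65.05), and the receptors Tnfrsf1a (72.42), Tnfrsf11a (66.63), Tnfrsf14 (62.38) and Tnfrsf13c (56.89). Tnfsf9 was the WT-only member (111.72). Apoptosis genes had 5 in KO only (20.8%), the death receptor Fas (92.51), the BH3-only genes Bik (82.18) and Bmf (79.39), Bak1 (72.49) and the inhibitor Cflar (66.03). They had 2 in WT only, Bcl2l2, an anti-apoptotic family member (90.85), and Bad (83.52), whose peak it shares with Gpr137. The TNF and apoptosis counts were the same with both lists whole. With the 10000 strongest peaks they were 1 WT only and 2 KO only for the TNF superfamily, and 4 and 3 for apoptosis, and with the 5000 strongest 0 and 1, and 1 and 2.

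Interferon response genes were often listed in 1 library, on both sides, with 5 in WT only (21.7%) and 6 in KO only (25.0%). The KO-only members were led by Ifitm1 (101.13), Cxcl10 (91.96), Ifi204 (85.1) and Ifit3 (71.19), and the WT-only ones by Ifi47 (67.11), Zbp1 (65.19) and Dhx58 (62.18, with a weak KO peak of 51.4). The median score of their start peaks was 86.8 in WT against 138 over all genes, in a score decile where 23.7% of all WT start peaks were absent from KO. Poly(I:C) was given to all groups. Chemokines and their receptors had 3 (37.5%) and 4 (44.4%), with Cx3cr1 (86.29) in WT only and Cxcl10, Cxcl5 (84.15) and Cxcl9 (65.57) in KO only. Interleukin genes had 3 (25.0%) and 5 (35.7%), led by Il18 (68.81) in WT only and by Il4ra (149.33) in KO only.

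Kinesins, the microtubule motors, gave 8 in WT only and 1 in KO only (28.6% and 4.76%), with 20 in both. The WT-only members were led by Kif5b (146.28), Kif1c (120.94), Kif3a (101.14) and Kif26b (84.85), and the KO-only member was Kif5c (113.27). Kif5b and 2 others had a weak KO peak, with both lists whole the counts were 5 and 1, and with the 5000 strongest peaks of each list 3 and 3. Potassium channel genes gave 16 in WT only (69.6%) and 5 in KO only (41.7%) with 7 in both, so both shares lay above those of all genes. The WT-only ones included Kcnk12 (103.97), Kcnu1 (91.19) and Kcng1 (85.32), and the leading KO-only one was Kcnab1 (122.1). Kcnab1 also held 3 further KO-only body peaks and no WT peak. The median WT score of the channel start peaks was 73.5, in a decile where 31.5% of all WT start peaks were absent from KO. Their median KO score was 86.4, in a decile where 16.5% of all KO start peaks were absent from WT. With both lists whole the split was 14 and 9, and with the 10000 strongest 6 and 3.

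Large families lay closer to the background. Zinc finger genes had 28 in WT only (8.64%) and 21 in KO only (6.62%), with 296 in both, and besides Zfp58 the KO-only ones were led by Zfp169 (115.72), Zfp951 (107.39) and Zfp30 (89.85). The WT-only count includes Zfp369 (382.58) and Zbtb7a (153.61), whose peaks overlap a KO peak outside the window. Of those without such an overlap Zfp429 (187.29) and Zbtb12 (131.36, with a weak KO peak of 51.57) were the highest. Solute carriers had 28 (16.5%) and 17 (10.7%), led by Slc39a7, a zinc transporter (151.78), and Slc22a21 (121.79) in WT, and by Slc30a10 and Slc36a4 in KO. With the 10000 strongest peaks of each list the solute carriers turned to 16 and 28, and with the 5000 strongest to 16 and 17. With both lists whole they split 23 and 23, the zinc fingers 22 and 27, and the Trim genes, 6 and 5 in the cut lists, 4 and 6. Rab GTPases had 7 (13.2%) and 3 (6.12%), led by Rab7, of late endosomes (151.57), and by Rab9b (59.84). Autophagy and lysosome genes had 3 in WT only (9.38%), Gba2 (in this list although its enzyme is not lysosomal), Optn and Ctsa (64.81). They had 1 in KO only (3.33%), Map1lc3b, which encodes LC3B (56.34). Away from starts this list went the other way. There 3 of 12 WT peaks (25.0%) and 12 of 21 KO peaks (57.1%) were absent from the other kept peak list. Over all genes these shares were 45.4% and 47.7%.

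Some families were the same in both libraries at their starts. All 17 Klf and Sp genes with a start peak had it in both lists, as did all 18 AP-1 and CREB family genes. The median WT score was 294 for Klf and Sp genes, in a decile where 0.0642% of all WT start peaks were absent from KO. It was 146 for AP-1 and CREB genes, in a decile where 2.47% were absent. Of the AP-1 and CREB genes, 3 were in WT only with the 10000 strongest peaks of each list. With the 5000 strongest there were 2 on each side, and 1 Klf or Sp gene was in WT only. Away from starts, 11 of 25 WT peaks of the AP-1 and CREB genes were absent from KO (44.0%, against 45.4% over all genes). Among them were 1 near Jun (96.05) and 2 each near Atf3, Fosb and Batf3. Of their KO peaks, 3 of 17 were absent from WT (17.6%, against 47.7% over all genes), led by 1 in Batf (90.21). Cell cycle genes had 33 in both lists, with Cdk6 (75.87) and Rbl1 (53.42) in WT only and Cdkn1c, the inhibitor p57 that keeps HSC quiescent (86.7), and Aurkb (61.31) in KO only.

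**Figure D5:**
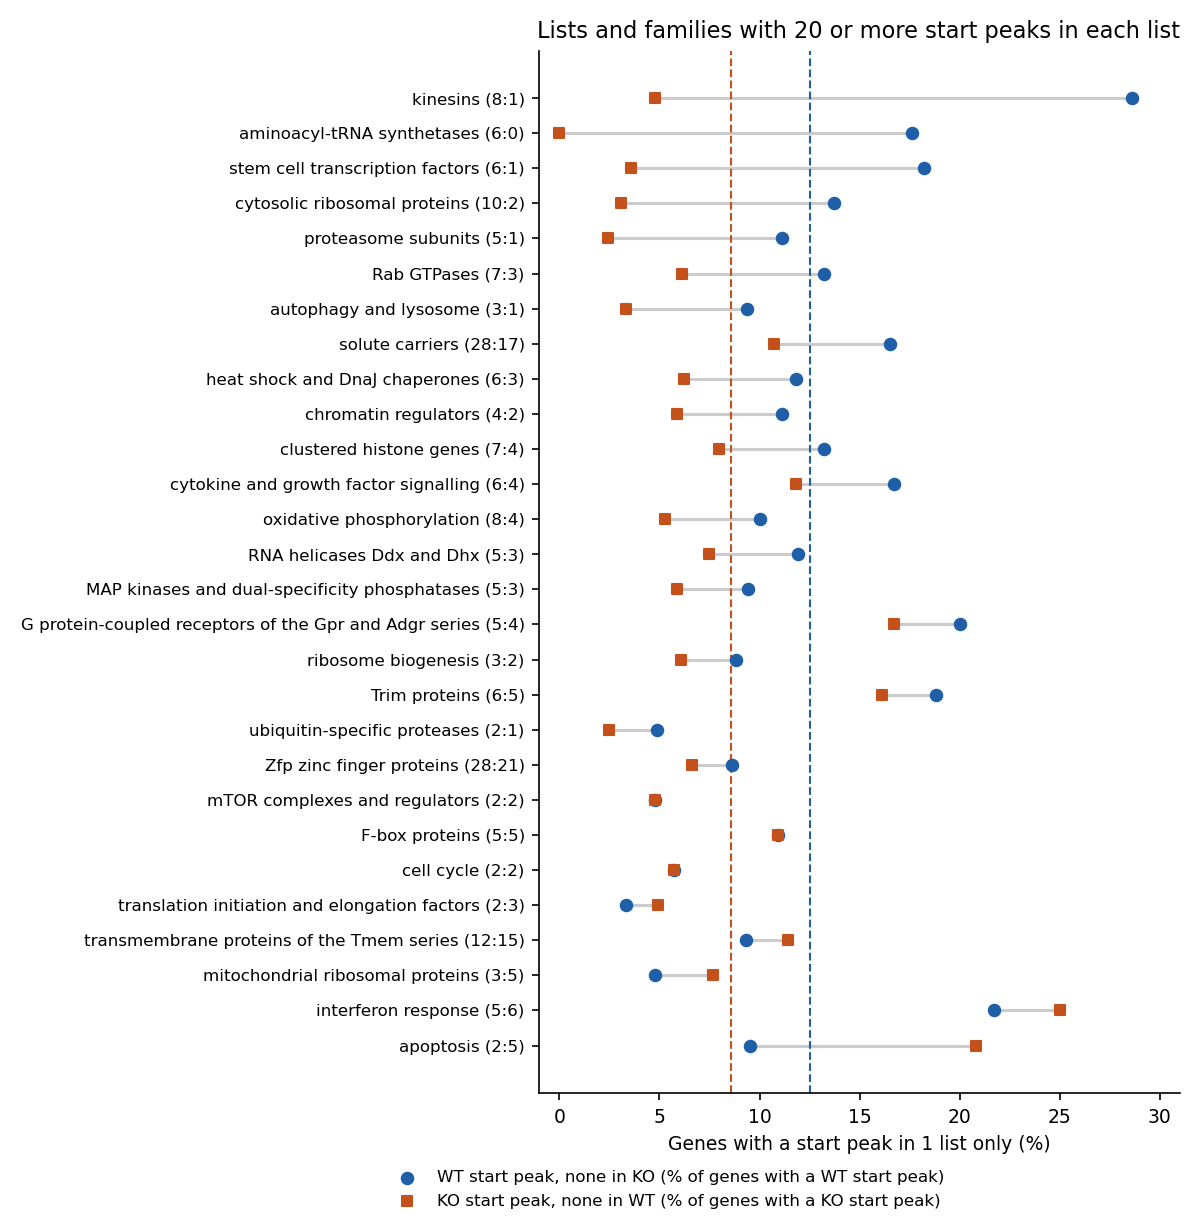
Percent of genes with a start peak in WT and none in KO (circles) and in KO and none in WT (squares), for 28 lists with at least 20 start peaks in each library; counts in brackets are WT only and KO only, and dashed lines are the values over all genes, 12.5% and 8.55%. Kinesins lie at 28.6% and 4.76%, and apoptosis genes at 9.52% and 20.8%.

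Promoter sequence was read for 17274 of the 21631 genes, in the 250 bases before the start. The median observed over expected CpG ratio was 0.781 at genes with a start peak in both lists, 0.670 at the 962 WT-only genes, 0.639 at the 643 KO-only genes and 0.237 at genes without one. An Ets match was present in 25.5% of promoters of genes with a start peak in both lists, 19.5% of WT-only, 17.0% of KO-only and 15.4% of all promoters. A GC box was present in 65.7%, 55.0%, 51.8% and 43.7%. CCAAT was present in 40.5% of promoters of the genes in both and in 28.3% and 29.5% of WT-only and KO-only ones, against 36.6% of all. Promoters of WT-only and KO-only genes resembled each other in these measures more than either resembled the shared ones. Part of that distance goes with score: among genes in both lists with a WT score in the 3 lowest deciles the CpG ratio was 0.707, CCAAT 28.8% and the GC box 56.6%. At WT-only genes of these deciles the values were 0.633, 30.4% and 52.2%. In the 3 lowest KO deciles they were 0.714, 32.1% and 58.8% at genes in both lists, and 0.621, 32.2% and 47.5% at KO-only genes. A difference in the CpG ratio and the GC box thus remained at similar scores. The TGACG core was present in 31.2% of promoters in both lists, 21.8% of WT-only and 23.2% of KO-only ones.

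Hairpins of microRNAs were read the same way, by a peak within 1 kb. Of 1005 hairpins 72 had a peak in both lists, 24 of 96 in WT only (25.0%) and 11 of 83 in KO only (13.3%). These calls rest on the 1 kb window alone, and hairpins that share a peak were counted separately. A peak of the other list can overlap the called peak and end outside the window. The highest WT-only call, Mir3069 (380.9), lay above the highest score of any WT-only peak (341.21), so its peak overlapped a KO peak. The clusters below were chosen after their values were seen. Mir23a, Mir27a and Mir24-2 share a WT-only peak at chr8:84207811-84208183 (66.58, KI 60.58), and Mir17, Mir18 and Mir19a of the Mir17 to 92 cluster share a KO-only peak at chr14:115041813-115043031 (79.23), where KI had one of 148.11. Their mature sequences are shown with the seed, bases 2 to 8, in capitals.
mmu-miR-23a-3p: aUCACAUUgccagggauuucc
mmu-miR-27a-3p: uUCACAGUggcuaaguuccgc
mmu-miR-17-5p: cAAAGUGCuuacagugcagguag
mmu-miR-18a-5p: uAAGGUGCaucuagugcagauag
mmu-miR-19a-3p: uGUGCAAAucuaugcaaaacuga
No 2 of these 5 microRNAs share a seed. The level of these microRNAs was not measured, and the peaks are weak ones of their lists.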

How the data were processed

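ATAC-seq was measured in 3 libraries of sorted HSC, 1 per genotype, and WT and KO were compared, with KI as a further reading. The authors deposited 1 headerless list of peaks per library, with names as MACS writes them. Its last column holds the peak score as deposited by the authors, taken here to be 10 times the negative log10 of the p-value. The submitters' processing notes name mm10 as the build and CASAVA as a tool. Aligner, MACS version, duplicate handling, transposase shift and filters are not given in the sources. Without them and without read depth, the precision of presence and absence is unknown, and any step that differed between libraries would act on weak peaks first.

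Peaks were ranked by score (ties by chromosome, then start) and cut to at most 17316. Protein-coding genes (21631) came from RefSeq on GRCm38.p6. The start of 17274 was read from the RefSeq promoter table, and the other 4357 were placed by both annotated ends, 1 of which is no start. A peak was at a start within 1 kb of one, otherwise in a body or distal, and distal peaks were named by the nearest start within 50 kb. Shares carry Wilson 95% intervals, computed with Python 3.11.15, pandas 2.3.3, numpy 2.4.6 and scipy 1.17.1, and figures were drawn with matplotlib 3.10.9. The overlap, ranking and place functions were tested on simulated peaks with known answers. No set test and no p-value was computed.

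Genes were named by rule: Mtor; per list the 10 highest start, 6 body and 6 distal peaks that the other list lacked; up to 4 members of each of 45 gene lists and families and 8 marker lists, highest score first; and the 8 genes per list with the most peaks in that list only. A few genes and 1 list that the rule names are not reported here. Families were matched by symbol prefix and take in a few genes of other function. Members, lists and rules were chosen with earlier results of these data known. Fuller counts of short lists, the members named away from starts and the microRNA clusters were chosen after their values were seen. Counts of gene lists under other list lengths were likewise added after seeing the data. Alternatives were the overlap rule, list length, start window, gene set and score minimum.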

Additional observations from a re-analysis of the deposited data

How the results depend on the processing

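The counts of peaks in 1 list only, 4966 in WT and 4969 in KO, stayed within 1.5 times under other overlap rules, with whole lists and with absence judged against the whole other list. Shorter lists hold fewer peaks: with the 10000 strongest the counts were 2384 and 2368, with the 5000 strongest 1162 and 1161, and at a score of at least 100 they were 1901 and 1765.

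The share of peaks in 1 list only at gene starts was higher in WT than in KO under every alternative run. It was 47.3% in WT and 37.2% in KO with the 10000 strongest, 73.0% and 66.2% with the 5000 strongest, and 55.2% and 47.6% at a score of at least 100. With a start window of 500 bp it was 25.7% and 16.8%, with 2500 bp 32.3% and 22.9%, with all annotated genes 34.5% and 24.9%, and with genes of known start only, an addition after seeing the data that leaves out chromosome 18, 22.9% and 16.0%. When 50% of a peak had to be covered it was 32.0% and 22.1%, and when a peak within 1 kb counted as shared 26.5% and 17.3%. With whole lists, and with absence judged against the whole other list, the WT share was 26.8%. With whole lists the KO share was 19.3%, but of 6220 KO-only peaks against 4417 WT-only ones. The higher WT share there goes with a longer KO list and does not show more WT-only start peaks. Genes with a start peak in 1 list only then numbered 1028 in WT and 997 in KO.

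The excess of genes with a WT-only over a KO-only start peak, 427, was 281 with the 10000 strongest, 104 with the 5000 strongest, 224 at a score of at least 100, 214 with absence judged against the whole other list and 31 with whole lists. The 2 overlap alternatives were not run for genes, which are called by windows and not by overlap.

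A KI peak was present at 92.1% of WT-only and 90.4% of KO-only peaks with the 10000 strongest, at 99.1% and 99.8% with the 5000 strongest, and at 96.4% and 96.7% at a score of at least 100. The shares were 66.1% and 63.4% when 50% of a peak had to be covered, 59.1% and 58.0% with whole lists, and 59.1% for WT-only peaks judged against the whole KO list. With the KI list cut to the same length, an addition after seeing the data, they were 37.2% and 36.6%. The cause of these shifts was not tested beyond the change in the peaks counted. Of the 22 named WT-only peaks 14 stayed in 1 list only against the whole KO list. The WT list was already whole, so the 22 named KO-only calls could not change there, nor could a shorter list or a stricter overlap change a call on either side. When a peak within 1 kb counted as shared, all 22 on each side stayed.

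No paired analysis was possible because each genotype had 1 ATAC library. Peak presence depends on depth, which is unknown, so a peak in 1 list only is not shown to be closed in the other library.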
